A study of Homo sapiens with 9 samples.

Results

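ACSS2-KO-3 was compared directly with ACSS2-KO-2, both groups being PANC-1 cells in which ACSS2 was targeted, to ask how far the transcriptomes of knockouts of the same gene differed from each other. The comparison takes the 6 libraries whose titles carry these names, 3 in each group, of 9 libraries in all. The other 3 libraries, titled NC, are shown as a reference level. They enter no contrast, but they share the model, its gene filter and its estimate of spread; the 6 knockout libraries alone gave 9447 calls among 15213 tested genes. PANC-1 is an established human pancreatic carcinoma line, and polyadenylated RNA was sequenced from both ends after oligo(dT) selection, fragmentation and dUTP marking of the second strand. No drug, dose or time is given for any group. Nothing in the sources states whether 2 and 3 name clones, pools or guides, what the letters NC abbreviate, or how the gene was edited. The treatment label rises by 1 from one knockout sample to the next, starting at ACSS2-KO and ending at ACSS7-KO, so the titles were used to group the samples.

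ACSS2 is the enzyme of the cytosol and nucleus that turns acetate into acetyl-CoA, the carbon donor for fatty acid and cholesterol synthesis and for the acetylation of histones and other proteins. Cells also make acetyl-CoA from citrate through ACLY, and tumour cells are known to lean on acetate when oxygen or lipid is scarce. The series title links ACSS2 to BCAT1, a cytosolic aminotransferase acting first in breakdown of the branched-chain amino acids leucine, isoleucine and valine.

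The ACSS2-KO-2 libraries totalled 14756572 to 16813763 counts and the ACSS2-KO-3 libraries 16144829 to 17457190, and the median tested gene had 322 counts in its median library. At least 1 count was found for 24572 to 25185 genes in the ACSS2-KO-2 libraries and for 22311 to 23183 in the ACSS2-KO-3 libraries, against 24476 to 24496 in NC. Across genes, log levels correlated at 0.994 to 0.995 among libraries of the same knockout, but at 0.965 to 0.975 between the knockouts (15811 genes, which are not independent replicates). Levels below are counts per 1000000 scaled with TMM factors (CPM), and every difference is a log2 difference, ACSS2-KO-3 minus ACSS2-KO-2, with its standard error (SE). A gene is called different when its adjusted p is under 0.05 in edgeR's quasi-likelihood test. Whether the 3 libraries per group were grown as separate cultures is not labelled, and the p-values may therefore measure only technical spread. In bulk RNA, fewer cells of a type and less RNA per cell cannot be told apart.

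Transcripts typical of pancreatic carcinoma lines were abundant in both groups, although they do not single out PANC-1, and transcripts that go against the label are described with CDKN2A. The summed level of 10 pancreatic carcinoma cell markers, among them KRT8, KRT18, VIM and ANXA2, was 9541 to 10418 CPM in ACSS2-KO-2 and 11289 to 12292 CPM in ACSS2-KO-3, against 10494 to 10853 CPM in NC. None of the 10 was at 0 in any group. Markers of acinar and islet cells summed to at most 2.35 CPM in any library, and INS, GCG, PNLIP, PTF1A and NEUROD1 were at 0 in all 9 libraries. Immune, endothelial and fibroblast markers summed to 8.19 to 11.0 CPM in ACSS2-KO-2 and 6.21 to 7.40 CPM in ACSS2-KO-3, most of it from KDR and COL3A1, while LYZ and LUM were at 0 throughout.

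RNA of the targeted gene was present in all 6 libraries and was lower in ACSS2-KO-3. ACSS2 (chromosome 20, 34872146 to 34927962, plus strand, GRCh38) had 15.1, 14.7 and 12.4 CPM in ACSS2-KO-2, against 7.19, 8.57 and 8.50 CPM in ACSS2-KO-3, with 33.3, 30.6 and 28.3 CPM in NC. The groups did not overlap, and both knockouts lay below every NC library. The log2 difference between the knockouts was -0.80 (SE 0.115, adjusted p = 1.05e-06), a level in ACSS2-KO-3 of 57.6% of that in ACSS2-KO-2. RNA of a gene disrupted by a small insertion or deletion need not disappear, and no protein was measured in these data.

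BCAT1 was also lower in ACSS2-KO-3, and by more than the targeted gene. Its levels were 7.38, 11.2 and 9.70 CPM in ACSS2-KO-2, against 1.37, 1.64 and 1.78 CPM in ACSS2-KO-3, with 20.5, 20.1 and 17.5 CPM in NC. The 3 groups formed 3 steps with no overlap. The log2 difference was -2.55 (SE 0.187, adjusted p = 4.48e-12), which is 5.86-fold. BCAT2, the mitochondrial counterpart of BCAT1, did not pass the test: it had 47.2, 43.9 and 41.3 CPM in ACSS2-KO-2, against 51.2, 44.4 and 49.8 CPM in ACSS2-KO-3, overlapping groups with a log2 difference of 0.13 (SE 0.0721, adjusted p = 0.111).

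**Figure D1:**
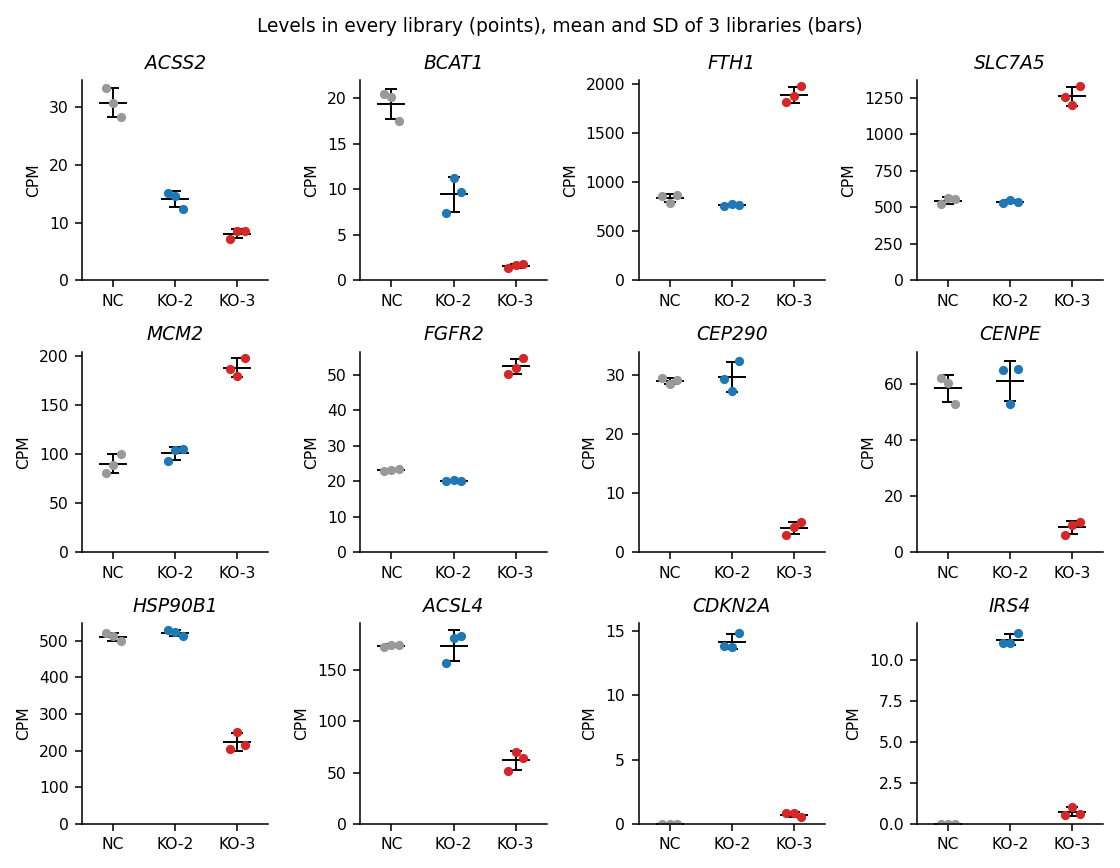
Levels of 12 genes in counts per 1000000 (CPM, linear axis from 0) in each library of the 3 groups (points), with the mean and SD of the 3 (bars). FTH1, SLC7A5, MCM2 and FGFR2 were near their NC level in ACSS2-KO-2 and higher in ACSS2-KO-3, CEP290, CENPE, HSP90B1 and ACSL4 near it in ACSS2-KO-2 and lower in ACSS2-KO-3, and CDKN2A and IRS4 were at 0 in NC and highest in ACSS2-KO-2.

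Most measured genes differed between the knockouts. Of 15811 tested genes, 9756 (61.7%) were called, 4936 (31.2%) higher and 4820 (30.5%) lower in ACSS2-KO-3. The counts in the 2 directions were similar, but the sizes were not. The 3 libraries of one knockout lay entirely above or below those of the other for 65.9% of tested genes, 33.3% higher and 32.6% lower. Among called genes the median log2 difference was 0.41 for those higher and -0.87 for those lower. At 2-fold or more, 101 genes (0.639%) were higher and 2077 (13.1%) lower, 13.8% of tested genes in all. The median over all tested genes was -0.02.

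NC placed most of these large differences on the side of ACSS2-KO-3. A gene was counted as near a knockout when the mean NC level lay within 1.5-fold of it, after adding 0.5 CPM to both. Of the 2077 genes lower by 2-fold or more, 1657 (79.8%) were near ACSS2-KO-2 only, and 247 (11.9%) near ACSS2-KO-3 only. Among the 1189 genes lower by 2-fold or more both in these counts and with the correction for base composition described below, 823 (69.2%) were near ACSS2-KO-2 only and 233 (19.6%) near ACSS2-KO-3 only. The 247 held little RNA, with summed levels of 610 CPM in ACSS2-KO-2, 151 CPM in ACSS2-KO-3 and 165 CPM in NC. Of the 101 genes higher by 2-fold or more, 67 (66.3%) were near ACSS2-KO-2 only and 11 near ACSS2-KO-3 only. The ACSS2-KO-3 libraries were not equally low: over the 2077 genes, replicate 1 was the lowest of its group for 55.7% and replicate 2 the highest for 55.2%.

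**Figure D2:**
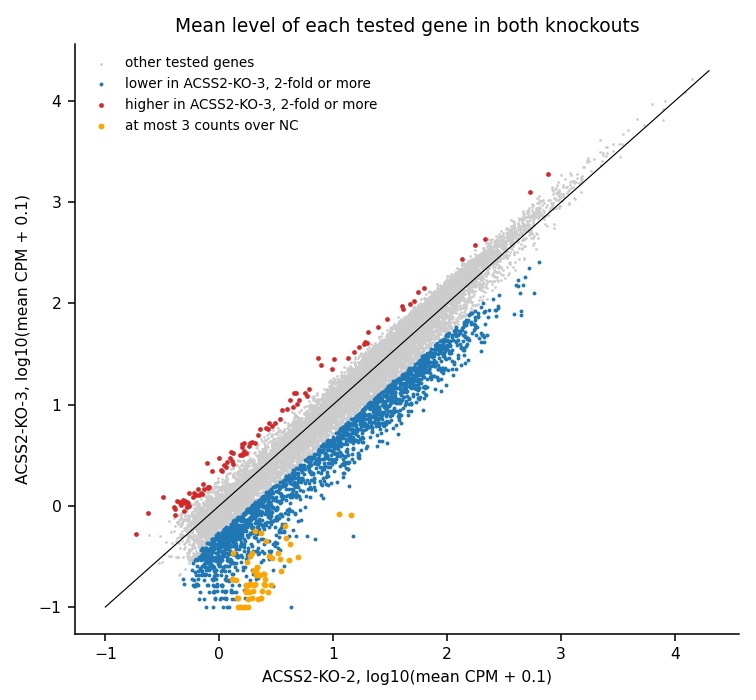
Mean level of each tested gene in ACSS2-KO-2 (x axis) and ACSS2-KO-3 (y axis), each as log10(mean CPM + 0.1), with the line of equal levels; 1 noncoding gene is not drawn. Genes called at 2-fold or more are red where higher in ACSS2-KO-3 (101 genes) and blue where lower, except that 57 coding genes nearly absent from NC are orange; most coloured points lie below the line.

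The size of a gene's difference went with the base composition of its transcript. Guanine and cytosine (GC) content affects how RNA fragments and libraries are copied and amplified, and it also varies with gene structure and codon use. Over 12903 protein-coding genes, the log2 difference had a rank correlation of 0.55 with the GC content of the longest annotated transcript, of 0.50 with that of the coding sequence and of 0.52 with that of the region after the stop codon. Genes under 40% GC (2038 genes) had a median log2 difference of -0.85, with 1688 (82.8%) lower and 57 (2.80%) higher. From 60% GC upward (2076 genes) the median was 0.27, with 203 (9.78%) lower and 1126 (54.2%) higher. Single libraries followed their group: each library's deviation from the mean of the knockouts had a rank correlation with GC content of 0.446 to 0.528 in ACSS2-KO-3, but of -0.513 to -0.439 in ACSS2-KO-2 and of -0.478 to -0.384 in NC. The opposite signs of the knockouts follow from taking their common mean, to which the sign in NC is not tied. Transcript length had a weaker rank correlation of -0.19.

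Because base composition moved with the comparison, the same counts were fitted a second time with an offset per library for transcript GC content and length. In that fit the rank correlation fell to -0.02 and the median of the genes under 40% GC was -0.11. It called 8641 genes (54.7%), 3715 (23.5%) higher and 4926 (31.2%) lower, and at 2-fold or more 1570 (9.93%), 93 (0.588%) higher and 1477 (9.34%) lower. The fits shared 2610 genes called higher and 3336 called lower, and gave opposite calls for 109 genes that turned to lower and 424 that turned to higher. Whether the composition trend arose in the cells or in the preparation of the libraries was not tested, and it cannot be told apart from the groups, since it separates all ACSS2-KO-3 libraries from all others. The offsets moved ACSS2 to -1.11 and BCAT1 to -1.72, both still called, and turned BCAT2 to -0.22 (adjusted p = 0.00417).

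**Figure D3:**
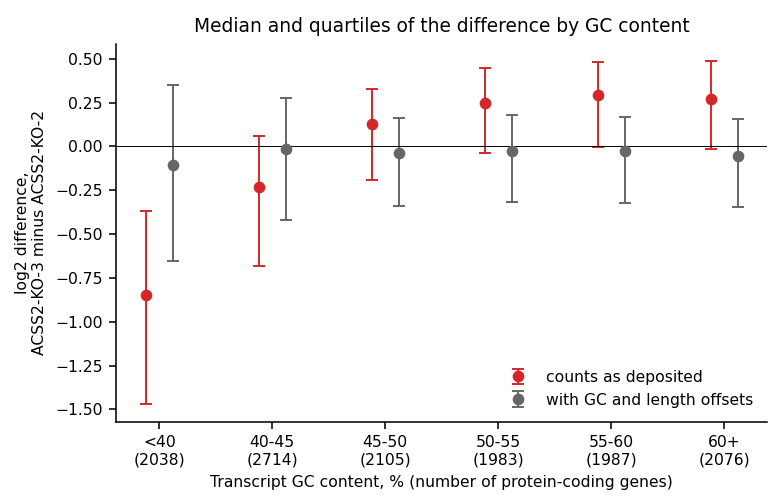
Median (point) and quartiles (bars) of the log2 difference, ACSS2-KO-3 minus ACSS2-KO-2, for protein-coding genes in 6 classes of transcript GC content in percent, from the counts as deposited (red) and with GC and length offsets (grey). From the deposited counts the median was -0.85 under 40% GC and 0.27 from 60% upward; with offsets the medians were -0.11 and -0.06.

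Coding sequences of leading genes show the range of composition. The middle 60 bases of the coding sequence are shown for 3 genes of the lowest named set and for the 3 highest named genes, from GENCODE release 29 transcripts (GRCh38, sense strand, 5′ to 3′), with G and C in capitals. The lower genes come first.
PLCXD3: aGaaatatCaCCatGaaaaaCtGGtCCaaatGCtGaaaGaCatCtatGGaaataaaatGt
ZMAT1: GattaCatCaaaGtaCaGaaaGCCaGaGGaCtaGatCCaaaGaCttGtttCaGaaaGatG
CEP290: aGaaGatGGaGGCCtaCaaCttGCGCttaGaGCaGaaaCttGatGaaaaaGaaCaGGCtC
ATOH8: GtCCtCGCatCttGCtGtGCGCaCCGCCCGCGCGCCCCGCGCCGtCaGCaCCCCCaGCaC
COL26A1: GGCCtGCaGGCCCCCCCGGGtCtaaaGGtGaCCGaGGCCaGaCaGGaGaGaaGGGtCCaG
FRMD3: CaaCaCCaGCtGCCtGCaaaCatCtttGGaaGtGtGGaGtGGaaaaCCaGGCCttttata
These windows hold 19, 23 and 27 G or C bases in PLCXD3, ZMAT1 and CEP290, and 46, 41 and 28 in ATOH8, COL26A1 and FRMD3. FRMD3 is the exception of its set, since its coding sequence is 47.7% GC, against 68.3% in ATOH8 and 67.5% in COL26A1. A window need not match its gene: that of CEP290 is 45% GC in a coding sequence of 35.1%, and that of PLCXD3 is 31.7% in one of 47.4%.

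The 10 leading genes among those higher in ACSS2-KO-3 in both fits included signalling and matrix genes, with NC within 1.5-fold of ACSS2-KO-2 for all 10. ATOH8, a basic helix-loop-helix transcription factor, had 7.09, 7.36 and 8.91 CPM in ACSS2-KO-2, against 23.9, 22.1 and 26.9 CPM in ACSS2-KO-3. The groups were far apart, with a log2 difference of 1.64 (SE 0.118, adjusted p = 3.26e-12; 1.31 with offsets). FGFR2, a receptor tyrosine kinase for fibroblast growth factors, had 19.96, 20.4 and 20.1 CPM against 50.3, 52.0 and 54.7 CPM, a log2 difference of 1.38 (SE 0.0718, adjusted p = 4.39e-15; 1.15 with offsets). The secreted ligands WNT10A and WNT5B were higher by 1.44 and 1.25 on the log2 scale (1.09 and 0.90 with offsets). COL26A1, a collagen chain, was higher by 1.55 and CRISPLD2, a secreted protein, by 1.47 (1.20 and 1.21 with offsets). FRMD3 (1.48), OLR1 (1.37), a scavenger receptor for oxidised lipoprotein, and PPP2R2B (1.35), a regulatory subunit of protein phosphatase 2A, had GC contents of 40.7%, 39.97% and 44.1%, and each difference was larger with the offsets (1.898, 1.82 and 1.56).

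FTH1, the heavy chain of the iron store ferritin, was the most abundant of the 10. It had 752, 781 and 768 CPM in ACSS2-KO-2, against 1819, 1874 and 1977 CPM in ACSS2-KO-3, against 857, 793 and 873 CPM in NC. All ACSS2-KO-3 libraries stood above every other library, with a log2 difference of 1.30 (SE 0.0495, adjusted p = 9.56e-18; 1.03 with offsets). Ferritin has many near-identical pseudogene copies in the genome, so its counts are uncertain where reads could be assigned to a copy. The helix-loop-helix inhibitors ID1 and ID3, named after their values were seen, were higher by 1.12 and 1.24 (0.78 and 0.91 with offsets).

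The 10 lowest genes with an NC level of at least 5 CPM were AT-rich in every case, with transcript GC contents of 33.3% to 39.7%, log2 differences of -3.79 to -2.68 and offset differences of -2.94 to -1.45. Their levels in ACSS2-KO-2 were near those in NC for all 10. Several encode long coiled-coil proteins of the centrosome, cilium and spindle. CEP290, a protein of the ciliary transition zone, had 29.3, 27.3 and 32.5 CPM in ACSS2-KO-2, against 2.88, 4.32 and 5.00 CPM in ACSS2-KO-3. Each ACSS2-KO-3 library was far below every ACSS2-KO-2 library, and the log2 difference was -2.87 (SE 0.126, adjusted p = 1.27e-16; -1.88 with offsets). AKAP9, a scaffold of the centrosome and Golgi, differed by -2.86, MAP9, a microtubule-associated protein, by -2.68, LRRCC1, a centriole protein, by -2.88 and CCDC112 by -2.73 (with offsets -1.998, -1.45, -1.79 and -2.25). RB1CC1, a scaffold of the kinase complex that starts autophagy, fell from 81.9, 88.5 and 96.3 CPM to 10.1, 14.9 and 15.4 CPM, with a log2 difference of -2.72 (SE 0.0979, adjusted p = 3.62e-18; -1.93 with offsets). PLCXD3 (-3.79), the zinc finger gene ZMAT1 (-3.23) and the ephrin receptor gene EPHA7 (-2.70) made up the remainder with the motor gene CENPE, and these 3 differed by -2.94, -2.42 and -1.95 with offsets.

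A separate set of genes was nearly absent from NC, clearly detected in ACSS2-KO-2 and found at a small share of that level in ACSS2-KO-3. It was defined, after the values were seen, as coding genes whose summed count was at most 3 in NC and at least 60 in ACSS2-KO-2, which gave 57 genes, 32 of them at 0 in NC. Because the NC and ACSS2-KO-2 levels chose them, their direction is given as a description. Their summed level was 149, 141 and 148 CPM in ACSS2-KO-2, 7.38, 8.27 and 9.80 CPM in ACSS2-KO-3 and 0.686, 0.906 and 1.25 CPM in NC. The ACSS2-KO-3 level was a median 4.305% of the ACSS2-KO-2 level, with quartiles of 2.42% and 7.28% and a range of 0% to 23.5%, and 5 of the 57 had no count in ACSS2-KO-3. The ratio was thus similarly small for most of the set. The sum in every ACSS2-KO-3 library stood above that in NC, but the NC sum was low by the choice of the genes.

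CDKN2A, the gene of the cell-cycle inhibitors p16 and ARF, known to be deleted in PANC-1, had 13.9, 13.8 and 14.9 CPM in ACSS2-KO-2, 0.850, 0.790 and 0.480 CPM in ACSS2-KO-3 and no count in NC. IRS4, an adaptor of insulin and growth factor receptors, had 11.1, 11.0 and 11.7 CPM, then 0.523, 1.03 and 0.617 CPM, and likewise no count in NC. In both genes the libraries of each group were tight and the groups far apart. Their transcripts are 61.4% and 56.0% GC, so they lie opposite to the composition trend, and the log2 differences of -4.303 and -3.93 became -4.65 and -4.24 with offsets. DPYSL5 (-3.01), PTGFRN (-2.70), ALDH1A2 (-2.62), which makes retinoic acid, and the amino acid transporter gene SLC6A15 (-4.19) were the others named with an NC level under 1 CPM, at -3.31, -2.92, -2.89 and -3.51 with offsets.

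Of the 57 genes, 7 are on a list of 15 markers of the embryonic kidney line HEK293. The list was chosen with earlier results of these data known, and the 57 genes by their levels, so this overlap is a description only. Of the 15 markers, 13 were tested. IGF2BP1, HOXC10 and PAX2, which were abundant in NC too, were higher in ACSS2-KO-3 by 0.30, 0.48 and 0.53 (0.16, 0.17 and 0.19 with offsets). The other 10 had lower values in ACSS2-KO-3, but most of them passed the count filter only through ACSS2-KO-2, so that count carries no support. The 8 markers at 0 in NC (CDKN2A, IRS4, UCHL1, HOXD13, HOXA10, HOXA9, NEFL and INA) summed to 43.3, 39.5 and 41.1 CPM in ACSS2-KO-2 and to 2.61, 3.22 and 2.33 CPM in ACSS2-KO-3. The whole list summed to 319 to 336 CPM in ACSS2-KO-2, 361 to 376 CPM in ACSS2-KO-3 and 294 to 304 CPM in NC. UCHL1, NEFL and NEFM are also neuronal markers, a list whose sum of 73.3 to 75.7 CPM in ACSS2-KO-2 and 25.4 to 34.8 CPM in ACSS2-KO-3 came mostly from SYT1, while DCX, STMN2, ELAVL4 and GAP43 were at 0 throughout. What part cells or RNA of another line had in these libraries was not tested.

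The HOX genes, which set positional identity in the embryo and are kept on or off in adult lines, are described by cluster. Only 4 of 9 HOXD genes had enough counts to be tested, and they reached that level through ACSS2-KO-2; HOXD9, HOXD10, HOXD13, HOXA9 and HOXA10 are among the 57 genes chosen by that level. Their direction was therefore fixed by the choice and the levels are given as a description. The summed HOXD level was 9.97 CPM in ACSS2-KO-2, 0.782 CPM in ACSS2-KO-3 and 0.294 CPM in NC, and the HOXA sum was 28.9, 13.9 and 12.8 CPM. HOXD10 had 3.95, 2.56 and 3.49 CPM in ACSS2-KO-2, against 0.0653, 0.182 and 0.343 CPM in ACSS2-KO-3. The HOXB and HOXC clusters, which NC cells transcribed at 700 and 384 CPM in sum, had medians of 0.10 and 0.17. These became -0.23 and -0.16 with the offsets. Of 9 tested HOXB genes, 2 were higher and 1 lower, and 0 and 6 with offsets. Of 9 tested HOXC genes, 4 were higher and 0 lower, and 3 and 4 with offsets. Over all tested genes, 31.2% were higher and 30.5% lower, and 23.5% and 31.2% with offsets.

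Among genes of cell division, those of DNA replication were mostly higher, while those of the kinetochore and spindle were divided. Replication genes encode the helicase, primase and polymerases that copy DNA in S phase. Of 45 tested, 32 were higher and 6 lower in ACSS2-KO-3, 71.1% and 13.3%, with a median of 0.41 against -0.02 over all genes. For this list and those below, the shares over all tested genes were 31.2% higher and 30.5% lower, and 23.5% and 31.2% with offsets. The offset fit gave 32 higher and 5 lower, of which 28 higher were shared, and a median of 0.31. MCM2, a subunit of the replicative helicase, had 92.7, 105 and 105 CPM in ACSS2-KO-2, against 187, 180 and 199 CPM in ACSS2-KO-3, with no overlap and a log2 difference of 0.90 (SE 0.0673, adjusted p = 6.26e-12; 0.57 with offsets). MCM3, MCM4, MCM5, MCM6 and MCM7 were higher by 0.34 to 0.70 (0.17 to 0.47 with offsets), the licensing factors CDT1 and CDC6 by 0.78 and 0.61 (0.43 and 0.54), and the flap nuclease FEN1 by 0.80 (0.49). RFC1, the large subunit of the clamp loader, was the clear exception: it fell from 63.0, 76.5 and 74.6 CPM to 19.7, 27.2 and 24.9 CPM, with a log2 difference of -1.57 (SE 0.0924, adjusted p = 4.87e-14; -1.28 with offsets).

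The kinetochore, the spindle and their motors pull chromosomes apart in mitosis. Of 50 tested genes of that kind, 18 were higher and 24 lower, with a median of -0.09, and with offsets 22 were higher and 21 lower with a median of 0.10. The list was divided rather than shifted: the members called higher had a median GC content of 49.1% and those called lower of 38.3%. CENPE, a kinetochore motor, had 65.0, 52.7 and 65.4 CPM in ACSS2-KO-2, against 6.14, 9.73 and 10.6 CPM in ACSS2-KO-3, with a log2 difference of -2.79 (SE 0.120, adjusted p = 9.61e-17; -1.72 with offsets). ASPM, a protein of the spindle poles, fell from 130, 124 and 142 CPM to 19.0, 27.7 and 26.4 CPM, a log2 difference of -2.43 (SE 0.0874, adjusted p = 3.59e-18; -1.49 with offsets). CENPF (-2.38), KIF20B (-2.35), SGO2 (-2.14), KIF14 (-2.01) and CENPC (-1.98) were likewise lower, and with offsets they were called at -1.85, -1.22, -1.12, -1.28 and -1.27.

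Other mitotic genes were higher at the same time. The mitotic kinase gene PLK1 was higher by 0.87 and AURKA by 0.57, the chromosomal passenger genes INCENP and BIRC5 by 0.83 and 0.79, and the cyclin gene CCNB1 by 0.50; with offsets they were called at 0.55, 0.40, 0.50, 0.49 and 0.62 in that order. CDK1 is an example of a call that turned, at -0.38 without and 0.39 with the offsets. In the G1 list, E2F1, E2F2, CDC25A and the cyclins CCND1 and CCND3 were higher by 0.64 to 0.83 (0.37 to 0.54 with offsets), whereas RB1, the retinoblastoma protein gene, fell from 61.8, 60.5 and 68.2 CPM to 26.4, 30.5 and 23.0 CPM (log2 difference -1.25, SE 0.0806, adjusted p = 3.22e-13; -0.48 with offsets). Of 20 tested G1 genes, 10 were higher and 8 lower, and 7 and 7 with offsets. The 8 include CDKN2A, which reached the tested level through ACSS2-KO-2, so its direction was fixed by that level.

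**Figure D4:**
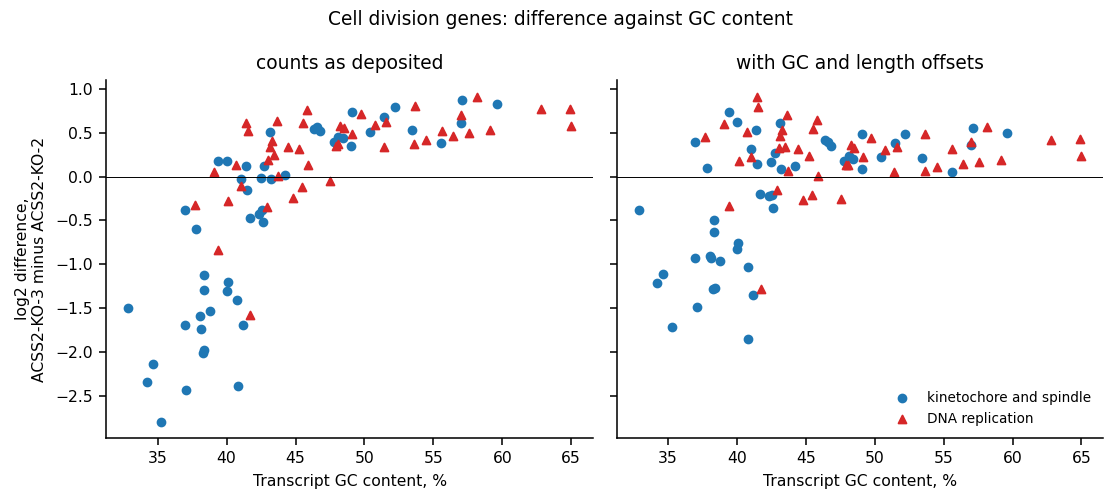
Log2 difference, ACSS2-KO-3 minus ACSS2-KO-2, of 50 kinetochore and spindle genes (blue circles) and 45 DNA replication genes (red triangles) against transcript GC content in percent, from the counts as deposited (left) and with GC and length offsets (right). The replication genes lie mostly above 0 in both panels, and the kinetochore and spindle genes spread in both directions in the left panel, the lower ones at low GC content, where CENPE is at -2.79 and PLK1 at 0.87.

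Genes of branched-chain amino acid breakdown were mixed, with more called lower than higher. Of 24 tested, 5 were higher and 11 lower with a median of -0.15, and 3 and 12 with offsets (-0.20). After BCAT1, the member with the largest difference was PPM1K, the phosphatase that activates the branched-chain ketoacid dehydrogenase. It had 8.52, 6.71 and 6.99 CPM in ACSS2-KO-2, against 3.53, 3.53 and 2.19 CPM in ACSS2-KO-3 (log2 difference -1.26, SE 0.186, adjusted p = 1.47e-06; -0.81 with offsets), and the ACSS2-KO-3 levels were the nearer to NC, at 4.80, 5.63 and 3.81 CPM. DBT, a core subunit of that dehydrogenase, differed by -1.08 (-0.37 with offsets), while BCKDK, the kinase that inactivates it, was higher by 0.47 (0.12 with offsets). BCKDHA was not tested because its counts were too low.

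Amino acid transporters divided by member. Of 21 tested, 8 were higher and 11 lower (median -0.60; with offsets 9 and 10, median -0.14). The 11 include SLC7A8 and SLC1A3, which reached the tested level through ACSS2-KO-2, so their direction was fixed by that level. SLC7A5, the transporter that exchanges leucine and other large neutral amino acids, was outside the naming rule for its list but had the largest increase in it. Its levels were 528, 550 and 538 CPM in ACSS2-KO-2, against 1253, 1201 and 1329 CPM in ACSS2-KO-3, with NC at 520, 562 and 555 CPM. The ACSS2-KO-3 libraries stood above both other groups, with a log2 difference of 1.23 (SE 0.050007, adjusted p = 3.67e-17; 0.90 with offsets). Its partner chain SLC3A2 was higher by 0.85 (0.51 with offsets), and SLC7A1, SLC1A4, SLC7A6, SLC43A2, SLC1A5 and SLC36A1 were higher by 0.44 to 0.69 (0.15 to 0.49 with offsets). SLC7A11, the cystine and glutamate exchanger, fell from 29.2, 33.3 and 36.4 CPM to 6.86, 9.97 and 8.84 CPM, with a log2 difference of -1.94 (SE 0.112, adjusted p = 3.66e-14; -0.85 with offsets) at a transcript GC content of 35.4%.

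The transporters SLC7A8 and SLC1A3 belong to the set nearly absent from NC. SLC7A8 had 28, 17 and 25 counts in the ACSS2-KO-2 libraries and 0 in each ACSS2-KO-3 library, so its level was at least 7.23-fold lower, taking 3 counts per library as the limit that a count of 0 allows. SLC1A3, a glutamate transporter, had 37, 35 and 39 counts in the ACSS2-KO-2 libraries, against 0, 1 and 1 in those of ACSS2-KO-3, and none in NC.

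Genes that supply or spend acetyl-CoA were called about as often as other genes. Of 27 tested, 12 were higher and 5 lower, against 61.7% called over all genes, with a median of 0.15, and 8 and 4 with offsets (median 0.03). CREBBP, an acetyltransferase that uses acetyl-CoA on histones, had 102, 110 and 116 CPM in ACSS2-KO-2, against 176, 183 and 165 CPM in ACSS2-KO-3, with no overlap (log2 difference 0.67, SE 0.0664, adjusted p = 1.37e-09; 0.54 with offsets). Its relative EP300 was higher by 0.41 and citrate synthase, CS, by 0.51 (0.27 and 0.25 with offsets). ACLY, which makes acetyl-CoA from citrate, was higher by 0.18 and not called with offsets (-0.09). The mitochondrial acetate enzyme gene ACSS1 was higher by 0.30 and not called with offsets (0.03).

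Lipid genes moved both ways. Of 25 fatty acid genes, 11 were higher and 9 lower (median 0.03; with offsets 7 and 9, median -0.09). The 2 lowest members were acyl-CoA ligases. ACSL4, which activates arachidonic acid, fell from 157, 181 and 184 CPM to 51.8, 69.8 and 64.2 CPM (log2 difference -1.49, SE 0.0768, adjusted p = 3.42e-15; -0.73 with offsets). ACSL3 fell from 138, 145 and 145 CPM to 57.2, 66.7 and 59.2 CPM (log2 difference -1.22, SE 0.0605, adjusted p = 1.54e-15; -0.51 with offsets). Their transcripts are 37.4% and 38.1% GC. FASN, fatty acid synthase, and ACACA, acetyl-CoA carboxylase, were higher by 0.32 and 0.33 (0.11 and 0.25 with offsets). Of 23 cholesterol genes, 10 were higher and 7 lower, and 8 and 10 with offsets, with 5 members called in opposite directions by the fits; STARD4, a sterol carrier, differed by -1.61 (-0.53 with offsets) and IDI1, an isomerase of the pathway, by -0.65 (-0.31 with offsets).

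Glycolysis genes and hypoxia targets leaned in opposite directions, and the lists share only SLC2A1. Of 21 glycolysis and lactate genes, 15 were higher and 3 lower with a median of 0.34, and 10 and 4 with offsets (median 0.11). PGAM1, phosphoglycerate mutase, had 543, 577 and 559 CPM in ACSS2-KO-2, against 799, 821 and 887 CPM in ACSS2-KO-3, without overlap (log2 difference 0.58, SE 0.04999, adjusted p = 1.13e-10; 0.27 with offsets). ALDOC, an aldolase, was lower, at 8.12, 8.74 and 8.55 CPM against 5.29, 4.50 and 3.70 CPM (log2 difference -0.91, SE 0.144; -1.25 with offsets). Of 25 hypoxia targets, 4 were higher and 18 lower (median -0.38), and 1 and 13 with offsets (median -0.22). Called lower in both fits were EGLN3, an oxygen sensor (-2.74), LOX, a collagen cross-linking enzyme (-1.85), the carbonic anhydrase gene CA12 (-1.67), NDRG1 (-0.96) and VEGFA, the vascular growth factor (-0.38). With offsets these 5 were at -2.99, -1.32, -1.87, -1.24 and -0.48. EGLN3 was nearly absent from NC, with 3 counts summed over the NC libraries, 59 over ACSS2-KO-2 and 8 over ACSS2-KO-3. It reached the tested level through ACSS2-KO-2, so its direction is given as a description. HIF1A, the oxygen-regulated transcription factor gene itself, differed by -1.06, and by -0.22 with offsets.

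Targets of the stress factor ATF4 showed no common direction in the deposited counts and were more often lower with offsets. Of 22, 8 were higher and 7 lower (median 0.04; with offsets 5 and 12, median -0.18), and ATF4 itself was not called at 0.05 but was called at -0.29 with offsets. ALDH1L2, a mitochondrial folate enzyme, differed by -1.52 (-1.19 with offsets) and ASNS, asparagine synthetase, by -0.57 (-0.76 with offsets), while MTHFD2 and PSPH were higher by 0.33 and 0.55 (0.66 and 0.28 with offsets).

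Genes of protein folding and degradation were more often higher. Of 37 tested proteasome subunits, 21 were higher and 5 lower (median 0.33), and 24 and 0 with offsets (median 0.19). Only 15 subunits were higher in both fits, and 4 had opposite calls. PSMD3, a subunit of the regulatory cap, had 160, 157 and 150 CPM in ACSS2-KO-2, against 229, 228 and 236 CPM in ACSS2-KO-3 (log2 difference 0.57, SE 0.0520, adjusted p = 3.73e-10; 0.26 with offsets), and the inducible subunit PSMB9 was higher by 0.60 (0.42 with offsets). Of 20 ER chaperone genes, 12 were higher and 4 lower, and 10 and 2 with offsets. The fits shared 7 called higher and gave opposite calls for 1. The exception by size was HSP90B1, the HSP90 of the endoplasmic reticulum, which fell from 530, 524 and 514 CPM to 203, 250 and 216 CPM (log2 difference -1.23, SE 0.0589, adjusted p = 8.20e-16; -0.90 with offsets). The ER chaperone genes SDF2L1 and HYOU1 were higher by 0.73 and 0.61 (0.39 and 0.31 with offsets). Cytosolic chaperones gave 11 higher and 5 lower of 19, and again 11 and 5 with offsets, but only 9 higher and 2 lower were shared and 3 members had opposite calls. HSF1, the heat shock transcription factor, was higher by 0.67 (0.33 with offsets), and HSPH1 was lower, at -0.70 (-0.20 with offsets).

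Mitochondrial genes were more often higher. Of 13 transcripts of the mitochondrial genome, 10 were higher and 0 lower (median 0.19), and 9 and 0 with offsets (median 0.28), with 6 higher in both. ACSS2-KO-3 replicate 3 stood apart, with a summed level of 59927 CPM against 52755 and 52596 CPM in replicates 1 and 2, and only 6 were called without it. MT-ND1, a subunit of complex I, had 2558, 2483 and 2389 CPM in ACSS2-KO-2, against 3379, 3256 and 3815 CPM in ACSS2-KO-3 (log2 difference 0.49, SE 0.0530, adjusted p = 6.86e-09; 0.28 with offsets). Of 77 mitochondrial ribosomal protein genes, 48 were higher and 8 lower (median 0.30), and 44 and 2 with offsets (median 0.19). Only 25 of them were higher in both fits, and 5 had opposite calls. MRPS12 led at 0.68, with MRPS18B at 0.67 (0.34 and 0.38 with offsets). Nuclear respiratory chain genes gave 35 higher and 8 lower of 75 (median 0.13), and 26 and 11 with offsets (median 0.05). The fits shared 14 members called higher, among them UQCRC1 at 0.57 (0.22 with offsets), and gave opposite calls for 5. Cytosolic ribosomal protein genes turned with the offsets: 39 higher and 14 lower of 79 (median 0.13) became 10 and 30 (median -0.06), with 12 members called in opposite directions.

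**Figure D5:**
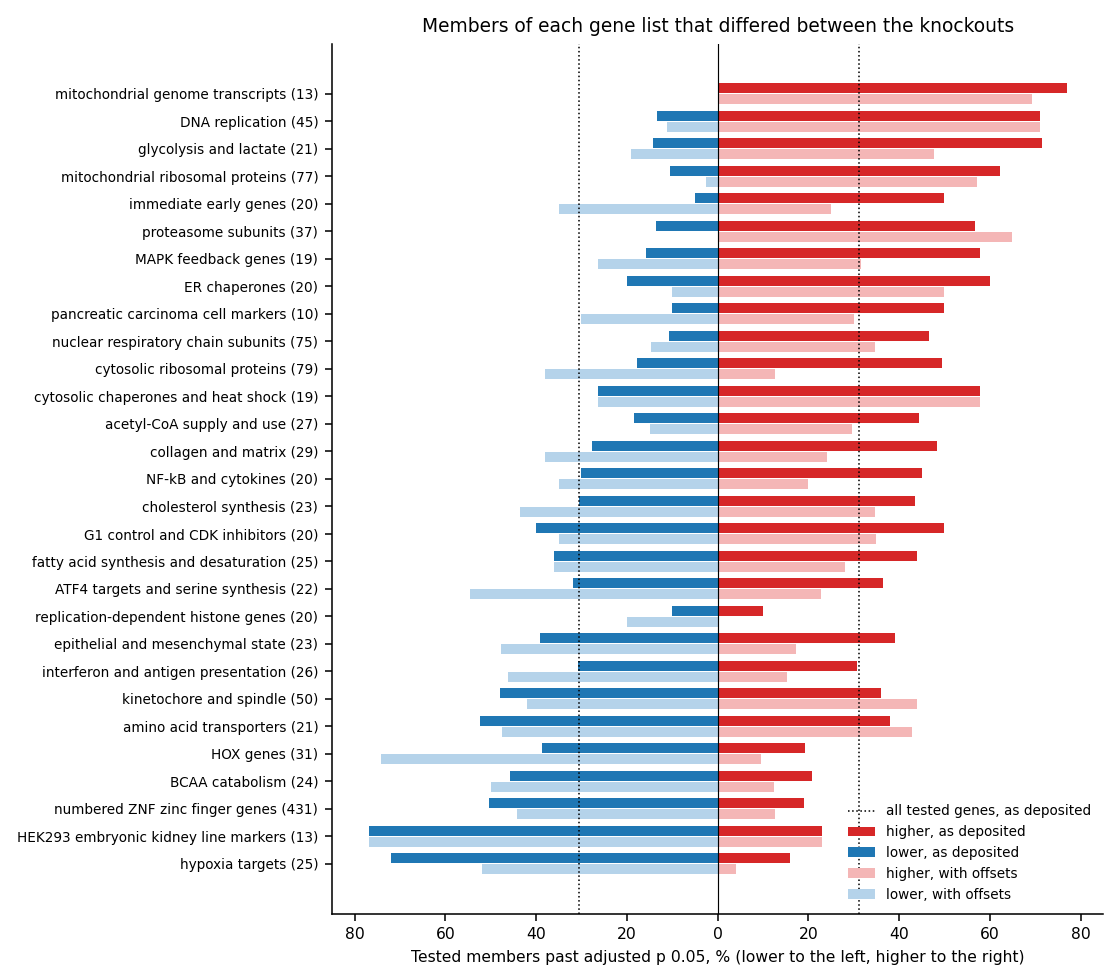
Percent of the tested members of 29 gene lists (number tested in brackets) called higher (red, right) or lower (blue, left) in ACSS2-KO-3, from the counts as deposited (dark) and with GC and length offsets (light). Dotted lines give the shares over all tested genes as deposited, 31.2% higher and 30.5% lower; DNA replication reached 71.1% higher and hypoxia targets 72.0% lower.

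Signalling lists depended on the fit for their balance, and the shares over all tested genes also moved between the fits. Of 20 immediate early genes, 10 were higher and 1 lower (median 0.21), and 5 and 7 with offsets (median -0.07). With offsets those counts lay near the shares over all tested genes, 23.5% higher and 31.2% lower. FOSL1, an AP-1 subunit, was higher in both, at 184, 168 and 172 CPM in ACSS2-KO-2, against 333, 327 and 349 CPM in ACSS2-KO-3 (log2 difference 0.95, SE 0.0520, adjusted p = 1.28e-14; 0.60 with offsets). Of 19 MAPK feedback genes, 11 were higher and 3 lower (with offsets 6 and 5), and ETV1, an ETS factor, differed by -1.57 (-0.83 with offsets). Interferon and antigen presentation genes gave 8 higher and 8 lower of 26, and 4 and 12 with offsets. Without offsets that is 30.8% in each direction, near the shares over all tested genes. Within that list IFIT1 (-0.86; -0.63 with offsets), IFIT3 (-0.95; -0.94 with offsets) and IFIT2 were lower, IFIT2 from 8.75, 9.99 and 8.07 CPM to 3.20, 1.58 and 2.88 CPM (log2 difference -1.81, SE 0.184, adjusted p = 2.37e-09; -1.66 with offsets), while TAP1, a peptide transporter of antigen presentation, was higher by 0.59 (0.25 with offsets). The OASL log2 difference was -1.15 (adjusted p = 0.0152), a call that was lost without ACSS2-KO-2 replicate 3 or ACSS2-KO-3 replicate 2 (adjusted p = 0.0925 and 0.0928).

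NF-kB genes were divided in the same way. Of 20, 9 were higher and 6 lower, and 4 and 7 with offsets. The counts with offsets lay near the shares over all tested genes. BIRC3, an inhibitor of cell death, fell from 102, 108 and 109 CPM to 27.0, 34.1 and 35.3 CPM (log2 difference -1.73, SE 0.0753, adjusted p = 1.22e-16; -0.69 with offsets), and TNFSF10, the death ligand TRAIL, differed by -1.43 (-1.003 with offsets). The NF-kB subunit genes RELA and NFKB1 were higher by 0.62 and 0.51 (0.29 and 0.25 with offsets).

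Epithelial and mesenchymal genes had no common shift in the deposited counts and were more often lower with offsets. Both ZEB genes were lower. ZEB1, a repressor of epithelial genes, fell from 32.3, 37.5 and 36.2 CPM to 8.82, 12.8 and 9.19 CPM (log2 difference -1.77, SE 0.105, adjusted p = 5.63e-14; -1.09 with offsets), and ZEB2 differed by -2.17 (-1.47 with offsets). CDH1, the epithelial cadherin ZEB proteins are known to repress, was not called (-0.03; -0.24 with offsets), whereas CDH2, the neural cadherin, and AXL were higher by 0.52 and 0.72 (0.49 and 0.44 with offsets). Of 23 tested, 9 were higher and 9 lower, and 4 and 11 with offsets. Of 29 collagen and matrix genes, 14 were higher and 8 lower (median 0.18; with offsets 7 and 11, median -0.15). COL5A1, THBS1 and COL12A1 were higher by 0.60 to 0.76 in the deposited counts and by 0.54 to 0.75 with offsets. FBN2 (-3.63) and TIMP3 (-2.82), an inhibitor of matrix proteases, belong to the genes nearly absent from NC (-3.66 and -3.04 with offsets). FBN2 and TIMP3 are among the 8 lower and reached the tested level through ACSS2-KO-2, so their direction was fixed by that level.

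Zinc finger genes with numbered ZNF names, mostly repressors of transposable elements, were more often lower. Of 431 tested, 82 (19.0%) were higher and 217 (50.3%) lower, with a median of -0.35, and 55 and 191 with offsets (median -0.25), 169 of them lower in both. Their median transcript GC content was 43.3%, and that of the members called lower was 40.5%. Among all 2714 protein-coding genes of 40% to 45% GC, 16.7% were higher and 48.3% lower, near the shares of this list. With offsets that class had 32.6% higher and 32.1% lower. ZNF711 had 1.72, 2.43 and 1.81 CPM in ACSS2-KO-2, against 0.392, 0.243 and 0.137 CPM in ACSS2-KO-3 (log2 difference -2.89, SE 0.389, adjusted p = 3.06e-07; -2.12 with offsets). Near-identical copies are common in this family, so single members can share reads. Of 71 replication-dependent histone genes, whose main transcripts lack a poly(A) tail and are poorly captured by oligo(dT), 20 were tested, with 2 higher and 2 lower.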

How the data were processed

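Raw integer counts for 58735 genes, deposited by the authors and unscaled between libraries, were the starting values, and 25850 genes had none in any of the 9 libraries. GRCh38 is the build named per the submitters' processing notes, which also list StringTie 2.1.6, HISAT2 2.2.1, cutadapt 1.9, and edgeR and DESeq2 without a version. How reads were counted, and on which strand, is not given in the sources used here, so overlapping genes may share counts. All identifiers and positions matched GENCODE release 29, which gave transcripts for 58676 genes.

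Counts were filtered with filterByExpr (minimum count 10, minimum total 15), scaled with TMM factors and fitted in edgeR 4.0.16 (R 4.3.3, limma 3.58.1) as 1 quasi-likelihood model of the 9 libraries with 6 residual degrees of freedom. The contrast was ACSS2-KO-3 minus ACSS2-KO-2, 2-sided, with Benjamini-Hochberg adjustment over 15811 genes. SE was the log2 difference divided by the square root of its F value. The second fit added offsets per library, from splines of GC content and of length of the longest transcript (5 and 3 degrees of freedom). DESeq2 1.42.0 and limma-voom were alternatives. The common dispersion was 0.00291. In simulated counts 6 of 179 calls were false. The simulation gave all genes the common dispersion, few changed genes and no composition trend, so that share cannot be carried over to the data. A count of 0 allows up to 3 counts, 0.172 to 0.206 CPM per library, counting error only. The replicate numbers were checked for pairing and not used.

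Named genes were ACSS2, BCAT1 and BCAT2; protein-coding genes called in the same direction in both fits, without overlap and with at least 5 CPM in the higher knockout, up to 10 highest and up to 10 lowest with NC under 1 CPM or at least 5 CPM; and up to 2 members of each of 33 lists with the largest difference, passing in the same way at 1 CPM or more. Other genes were named after their values were seen. The members and lists were chosen with earlier results of these data known. No set test was run. The result of 1 of the lists is not reported here.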

Additional observations from a re-analysis of the deposited data

How the results depend on the processing

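The 19 alternatives were other scalings, filters, tools, samples in the fit, offsets, a replicate block and leaving out each library. The analyses of GC content and of list counts under them were added after seeing the data. Called genes numbered 9109 to 9890 with 1 library left out and 8641 to 9864 otherwise, and genes at 2-fold or more 2154 to 2415 and 1569 to 2722. ACSS2 ran from -0.88 to -0.71 with 1 library left out and from -1.11 to -0.79 otherwise, and BCAT1 from -2.70 to -2.40 and from -2.59 to -1.72. The replicate block called 9745 genes, 2178 at 2-fold or more. Same-numbered libraries of the knockouts had residual correlations of 0.0845, -0.0513 and -0.0136, so the numbers are not treated as pairs, and the block changed no call of a named gene on its own. The rank correlation with GC content, 0.535 to 0.566 with 1 library left out, was -0.0152 with GC and length offsets and -0.0154 with the block and offsets, which the offsets bring about by construction. The BCAT2 log2 difference reversed to -0.22 with offsets and to -0.22 with block and offsets (adjusted p = 0.00417 and 0.00292), and was called at 0.19 without ACSS2-KO-2 replicate 1 and at 0.20 without ACSS2-KO-3 replicate 2 (adjusted p = 0.0453 and 0.021). The OASL log2 difference was not called at -0.91 without ACSS2-KO-2 replicate 3 and -0.85 without ACSS2-KO-3 replicate 2. Called members of the hypoxia list numbered 14 with offsets in place of 22, and of the mitochondrial genome list 6 without ACSS2-KO-3 replicate 3 in place of 10; the cause was not tested. In simulated counts, 70 of 70 genes changed by 1 on the log2 scale were recovered at 10 CPM or more, and 24 of 30 from 1 to 10 CPM, which is where depth limits the calls. Of genes changed by 0.5, 71 of 71 were recovered at 10 CPM or more, but 8 of 29 from 1 to 10 CPM.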

Other observations

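Genes of the lincRNA and antisense classes were seldom called higher in ACSS2-KO-3. In the deposited counts their share called lower did not exceed that over all tested genes (31.2% higher, 30.5% lower). Of all 4936 genes called higher, 4587 reached 10 CPM in a knockout, and levels were not matched between the classes. Of 568 tested lincRNA genes, 39 (6.87%) were higher and 169 (29.8%) lower, and the median log2 difference was -0.35. Of 850 antisense genes, 39 (4.59%) were higher and 193 (22.7%) lower, and the median was -0.26. With GC and length offsets 23 lincRNA genes were higher and 187 lower, and 20 and 226 antisense genes. Over all tested genes those shares were 23.5% and 31.2%. The medians with offsets were -0.45 and -0.41, against -0.04 for 12910 protein-coding genes. An antisense gene and its partner may share reads.

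Detection differed in the same direction. A total of 479 genes had a count in each ACSS2-KO-2 library and none in ACSS2-KO-3, 200 of them protein-coding, and 157 of the 479 had no count in NC. The opposite pattern was found for 63 genes, 11 of them protein-coding. Most of these genes were rare, with a median of 7 counts over the ACSS2-KO-2 libraries for the 479 and of 5 over the ACSS2-KO-3 libraries for the 63. HOOK1, a microtubule adaptor gene named after its values were seen, was the most abundant of the 479 with 204 counts over the ACSS2-KO-2 libraries and 13 over NC.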
